A study of Mus musculus with 6 samples.

Results

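The exocyst is a protein complex that holds secretory vesicles at the plasma membrane before they fuse with it. The genes described are its 9 subunit genes in the mouse, Exoc1, Exoc2, Exoc3, Exoc4, Exoc5, Exoc6, Exoc6b, Exoc7 and Exoc8, found by symbol among 23358 listed genes. The family was picked because Exoc4 stood among the largest rises between the groups, so the differences of its members between the groups are given as a description, and their calls in the test across all genes are counted once, beside the share of all genes called, with nothing read from them. All 9 passed the filter on low counts, as did 14151 genes in all.

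RNA sequencing had been done on bone marrow-derived mesenchymal stem cells of C57BL/6 mice, adherent progenitors of bone, fat and cartilage, at passage 6 to 12. In the Dia2 siRNA group, 3 libraries came from cells transfected overnight with an siRNA against the formin Dia2 (gene Diaph3, older symbol Diap3) at 50 nM. In the control siRNA group, 3 libraries came from cells given a non-targeting siRNA of a sequence the sources used here do not state. Cells of both groups had adhered for 24 h, were exposed to a lipid transfection reagent and were harvested 24 h after the medium was replaced. One siRNA was used against Dia2, and nothing in the labels says whether the libraries of a group were separate cultures, so the tests below measure only the spread between libraries, which may be technical.

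Exocyst subunits assemble from a pair of subcomplexes, one of Exoc1 to Exoc4 and one of Exoc5 to Exoc8, with Exoc6 and Exoc6b as alternative forms of the same subunit. Exoc1 and Exoc7 bind phosphoinositides of the plasma membrane, Exoc2 and Exoc8 bind active Ral GTPases, and Exoc6 binds Rab11 on vesicles. In fibroblast-like cells the complex serves membrane addition at the leading edge, secretion and the recycling of adhesion receptors. It is known to work beside actin regulators, through Cdc42 and the Arp2/3 complex.

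The siRNA is shown because the comparison rests on it, and 2 short stretches of the Exoc4 3′ untranslated region and 1 of Exoc1 are shown because they hold a word searched for below. Capitals in the siRNA mark the target of bases 2 to 8 of its antisense strand. Capitals in the 3 sites mark GCAGTAC, a word that an earlier scan of the fold changes of these libraries had picked, so its presence in Exoc4 is no independent observation. The siRNA is from the study's design text, and the sites are from GENCODE M21 transcripts (GRCm38).
Dia2 siRNA, sense strand: cagagtccatgattcagAACTTAAt
Exoc4-201, chr6:33972324-33972330, plus strand: aagaaagtttGCAGTACagaatgttgc
Exoc4-201, chr6:33973490-33973496, plus strand: gaggtctaaaGCAGTACaagtattttg
Exoc1-202, chr5:76569895-76569901, plus strand: ctgtgactgtGCAGTACtctgctccag

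The siRNA matched Diaph3 transcripts over all 25 bases, whereas its longest exact run in any transcript of a subunit gene was 9 bases, and that of its complement 10 bases. Diaph3 checked the labels: it stood at 7.52, 8.37 and 7.39 CPM (counts scaled to library size with TMM factors) in the Dia2 siRNA libraries, against 84.7, 80.1 and 84.8 CPM in the control siRNA libraries. Total counts were 78529650 to 95573070 in the Dia2 siRNA group and 70538768 to 110006338 in the control siRNA group, all of them even numbers. The ribosomal precursor Rn45s took 10.9% of the counts in Dia2 replicate 1 and 11.7% in control replicate 3, against 6.0% to 7.41% in the other libraries. Of the 12 mesenchymal stem cell markers 11 could be tested and 10 rose, beside 29.3% of all genes tested. Their summed level was 5269 to 5337 CPM with Dia2 siRNA and 2914 to 3214 CPM with control siRNA, while Thy1 was close to 0 in both groups. The largest parts of the sum were Cxcl12, at 2096 CPM with Dia2 siRNA and 815 CPM with control siRNA, and Itgb1, at 1830 and 1427 CPM (means). Lepr was the tested marker that did not pass, at 1.45 CPM with Dia2 siRNA and 1.31 CPM with control siRNA. The 8 blood and macrophage markers summed to 3.98 to 5.64 CPM with Dia2 siRNA and 8.79 to 9.40 CPM with control siRNA, with Cd3e at 0 in every library. Of the 3 that could be tested 2 were lower, beside 29.9% of all genes tested. On average Cd53 was at 0.675 CPM with Dia2 siRNA and 3.41 CPM with control siRNA, and Itgb2 at 0.891 and 2.65 CPM. Csf1r did not pass, at 3.00 CPM with Dia2 siRNA and 2.92 CPM with control siRNA. The 6 endothelial markers summed to 1.75 to 2.20 CPM with Dia2 siRNA and 2.06 to 2.17 CPM with control siRNA, with Emcn at 0 in every library. Of the 4 that could be tested 1 was higher (Vwf) and 1 lower (Kdr), beside 29.3% and 29.9% of all genes tested. The part of these markers in the results was not tested.

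Exoc4 (Sec8) was the most abundant subunit per length with Dia2 siRNA and among the scarcer ones with control siRNA, while no other subunit differed by 2-fold. Exoc4, a core subunit of the first subcomplex, stood at 211, 218 and 218 CPM in Dia2 replicates 1, 2 and 3, against 27.0, 29.9 and 32.8 CPM in control replicates 1, 2 and 3. All 3 Dia2 siRNA libraries lay far above all 3 control siRNA libraries, and the libraries of each group lay close together. The mean was 216 ± 4.0 CPM with Dia2 siRNA and 29.9 ± 2.90 CPM with control siRNA (SD, n = 3 each). The log2 fold change was thus 2.85 ± 0.07 (SE), or 7.23-fold. By log2 fold change Exoc4 ranked 7 among 11007 tested genes with a mean of at least 2 CPM. Serpinb1a stood just above it at 3.28 and Fbn1 just below it at 2.77. In bulk RNA, a difference in how many cells carry a transcript and a difference in its level per cell cannot be told apart.

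**Figure D1:**
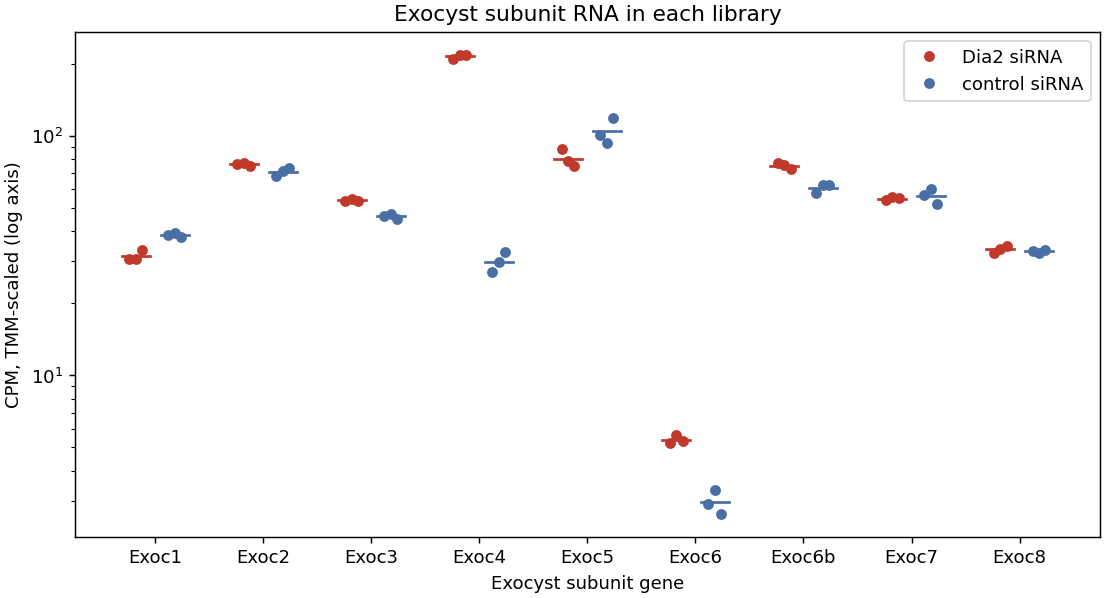
Level of each exocyst subunit gene in each library, in TMM-scaled CPM on a log axis, with Dia2 siRNA libraries in red left of control siRNA libraries in blue and short lines at the group means. Exoc4 lies at 211 to 218 CPM with Dia2 siRNA and at 27.0 to 32.8 CPM with control siRNA, and the groups overlap for Exoc7 and Exoc8.

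The other subunits of the first subcomplex differed little and in both directions. Exoc1 (Sec3), which helps to place the complex on the plasma membrane, stood at 30.7, 30.8 and 33.4 CPM with Dia2 siRNA, against 38.5, 39.4 and 37.8 CPM with control siRNA. Every Dia2 siRNA library was below every control siRNA library, with a log2 fold change of -0.29 ± 0.06 (SE), or 1.22-fold. Exoc2 (Sec5), the Ral-binding subunit of this subcomplex, stood at 76.7, 77.6 and 75.3 CPM with Dia2 siRNA, against 68.5, 71.4 and 73.7 CPM with control siRNA. Its groups were separate by a narrow gap, at a log2 fold change of 0.10 ± 0.05 (SE). Exoc3 (Sec6), whose yeast counterpart binds a membrane fusion protein, stood at 53.6, 54.6 and 53.6 CPM with Dia2 siRNA, against 46.3, 47.5 and 45.0 CPM with control siRNA. Its Dia2 siRNA libraries were all higher, at 0.22 ± 0.05 (log2, SE).

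In the second subcomplex the paralogs Exoc6 and Exoc6b were both higher with Dia2 siRNA and Exoc5 was lower. Exoc6 (Sec15), the scarcest subunit, stood at 5.24, 5.64 and 5.30 CPM with Dia2 siRNA, against 2.90, 3.31 and 2.64 CPM with control siRNA. The groups did not overlap, and its log2 fold change of 0.87 ± 0.11 (SE), or 1.83-fold, was the next largest after that of Exoc4. Exoc6b stood at 77.2, 75.7 and 73.0 CPM with Dia2 siRNA, against 57.7, 62.8 and 62.3 CPM with control siRNA. Its libraries were also separate, at 0.31 ± 0.05 (log2, SE), or 1.24-fold. No window of 50 bases of the longest Exoc6 or Exoc6b transcript occurred in a transcript of any other gene, each other included, so no exact read of that length could have been shared between the paralogs.

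Exoc5 (Sec10), which bridges Exoc6 to the rest of the complex, stood at 88.2, 78.5 and 75.1 CPM with Dia2 siRNA, against 102, 93.6 and 119 CPM with control siRNA. The groups were separate, but the gap between 88.2 and 93.6 CPM was smaller than the spread inside either group, and the log2 fold change was -0.38 ± 0.08 (SE), or 1.30-fold. The highest Exoc5 value of each group was in its library richest in Rn45s. Without those libraries the log2 fold change was -0.35, and the part of Rn45s in it was not tested. Exoc5 also overlaps Ap5m1 on the opposite strand. The longest Exoc5 transcript shares 3.83% of its windows of 50 bases with other genes, mostly Ap5m1. That transcript has 12699 bases and the counted row 4659, so the share inside the counted bases can be larger and was not measured. Ap5m1 itself, an adaptor complex subunit, rose to 18.3 ± 0.429 CPM with Dia2 siRNA, against 13.4 ± 1.88 CPM with control siRNA (SD, n = 3 each; edgeR adjusted p = 0.00064). Where the counting ignored strand, reads of the overlap could not be told apart.

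Exoc7 and Exoc8 were the subunits whose groups overlapped. Exoc7 (Exo70), which binds membrane lipids and the Arp2/3 complex, stood at 54.1, 55.6 and 55.0 CPM with Dia2 siRNA, against 56.7, 60.0 and 52.0 CPM with control siRNA. The control siRNA libraries lay on both sides of the Dia2 siRNA libraries, and the log2 fold change was -0.04 ± 0.06 (SE). Exoc8 (Exo84), the Ral-binding subunit of this subcomplex, stood at 32.6, 33.8 and 34.7 CPM with Dia2 siRNA, against 33.1, 32.4 and 33.5 CPM with control siRNA. Its libraries were intermixed, at a log2 fold change of 0.03 ± 0.06 (SE).

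Over the family, 4 subunits (Exoc3, Exoc4, Exoc6 and Exoc6b) were past an adjusted p of 0.05 on the higher side and 2 (Exoc1 and Exoc5) on the lower side by edgeR's quasi-likelihood test. Of all genes tested 59.2% were past it, 29.3% higher and 29.9% lower. The groups of libraries did not overlap for 7 of the 9, where 64.6% of all genes tested did not overlap. Since the family was chosen on this contrast, nothing is read from these counts. The median log2 fold change was 0.10 over the 9 subunits, beside 0.01 over all genes tested, and the median absolute log2 fold change was 0.29 beside 0.30.

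**Figure D2:**
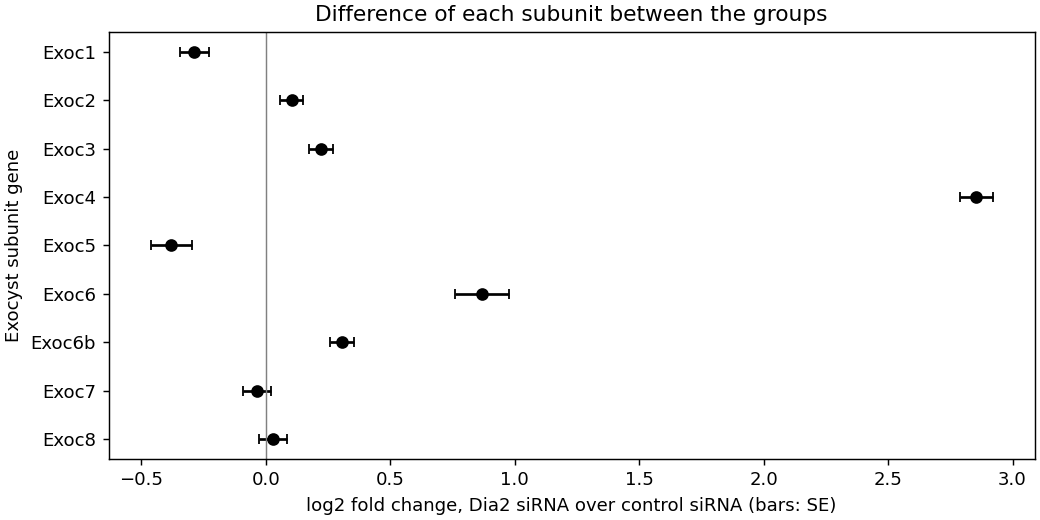
Log2 fold change of each exocyst subunit gene, Dia2 siRNA over control siRNA, from edgeR, with bars for the SE. Exoc4 lies at 2.85, Exoc6 at 0.87, and the other 7 between -0.38 and 0.31.

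Levels of different subunits were compared by the deposited RPKM, which divides by gene length. With Dia2 siRNA the order was Exoc4 at 48.4 ± 2.94, Exoc2 at 15.0 ± 0.595, Exoc5 at 14.3 ± 0.575, Exoc7 at 13.6 ± 0.740, Exoc6b at 11.5 ± 0.239, Exoc3 at 9.75 ± 0.454, Exoc1 at 7.80 ± 0.663, Exoc8 at 3.78 ± 0.281 and Exoc6 at 1.64 ± 0.113 RPKM (SD, n = 3). With control siRNA it was Exoc5 at 19.1 ± 1.57, Exoc7 at 14.4 ± 1.59, Exoc2 at 14.3 ± 0.387, Exoc1 at 9.77 ± 0.597, Exoc6b at 9.55 ± 0.490, Exoc3 at 8.59 ± 0.575, Exoc4 at 6.86 ± 0.450, Exoc8 at 3.80 ± 0.121 and Exoc6 at 0.923 ± 0.139 RPKM (SD, n = 3). Exoc2, Exoc5 and Exoc7 changed places among the Dia2 siRNA libraries, as did Exoc7 and Exoc2, and Exoc1 and Exoc6b, among the control siRNA libraries, so the order of these neighbours is within their spread. Exoc4 ranked 1 in every Dia2 siRNA library and 7 in every control siRNA library, while Exoc8 ranked 8 and Exoc6 ranked 9 in all 6.

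**Figure D3:**
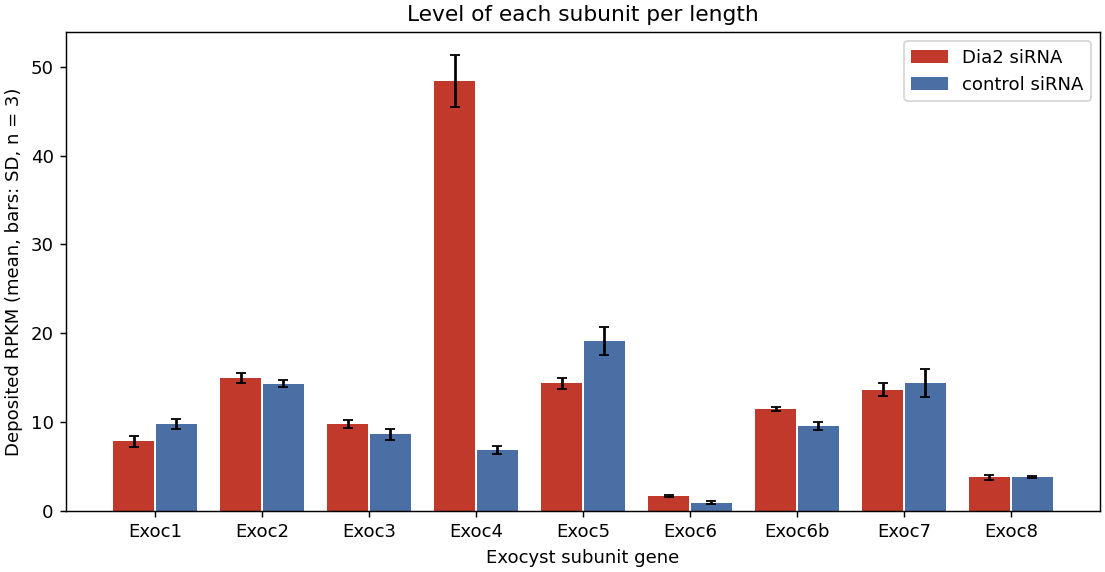
Deposited RPKM of each exocyst subunit gene, as means of 3 libraries with SD bars, Dia2 siRNA in red left of control siRNA in blue. Exoc4 reaches 48.4 RPKM with Dia2 siRNA against 6.86 RPKM with control siRNA, while Exoc8 and Exoc6 are the lowest in both groups.

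Exoc4 made up a much larger share of the summed subunit RNA with Dia2 siRNA. It held 37.6%, 38.6% and 39.1% of the RPKM summed over the 9 subunits in Dia2 replicates 1, 2 and 3, against 7.30%, 7.89% and 8.41% in control replicates 1, 2 and 3. The sum was 126 ± 5.29 RPKM with Dia2 siRNA and 87.3 ± 2.02 RPKM with control siRNA (SD, n = 3 each). Unlike the CPM values, these sums were not TMM-scaled. Without Exoc4 the sum was 77.4 ± 2.36 RPKM with Dia2 siRNA and 80.4 ± 2.07 RPKM with control siRNA, and the libraries of the groups overlapped. Exoc4 stood at 4.96 ± 0.0828 times the RPKM of Exoc3, a partner in the same subcomplex, with Dia2 siRNA, and at 0.802 ± 0.0920 times with control siRNA. Exoc6b stood at 7.02 ± 0.346 times the RPKM of its paralog Exoc6 with Dia2 siRNA and at 10.5 ± 1.23 times with control siRNA.

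The length behind these levels matters for some subunits. The deposited length was 7407 bases for Exoc8, whose GENCODE transcript has 4598 bases, and 4659 bases for Exoc5, whose longest transcript has 12699 bases. For Exoc4 the deposited row covers chr6:33249150-33972930 with 3710 bases, whereas transcript Exoc4-201 has 4824 bases and ends later, so the first of the 2 sites printed above lies inside the counted span and the other one beyond it. No window of 50 bases of that transcript occurred in another gene's transcripts.

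The annotated 3′ untranslated regions hold the words unevenly. GCAGTAC, searched on the transcript strand, was in those of Exoc4 (2 copies, in Exoc4-201 and not in the shorter Exoc4-202 and Exoc4-203) and Exoc1 (1 copy), and in 6.15% of the 13004 tested genes with such a region. These members lay on opposite sides, Exoc4 at 2.85 and Exoc1 at -0.29 on the log2 scale. AACTTAA, the target of the siRNA's antisense bases 2 to 8, was in Exoc3 and Exoc5 and in 13.9% of genes. TATGTGA and ATGTGAA, words of the same earlier scan that overlap by 6 letters, were in Exoc1 and Exoc5 and in Exoc5 and Exoc7, and in 13.6% and 18.3% of genes. All copies in Exoc5 were in Exoc5-207, whose 3′ untranslated region has 10071 bases. Exoc5-206, with a region of 406 bases, held none of the words, and a long region holds any such word more often. A match is a description of the sequence, and its part in the results was not tested.

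None of the genes beside Exoc4 on chromosome 6 was higher past the threshold. Chchd3, which encodes a protein of mitochondrial cristae and ends 189 kb before Exoc4, was at 72.9 ± 2.66 CPM with Dia2 siRNA and 79.8 ± 2.64 CPM with control siRNA (SD, n = 3 each; log2 fold change -0.13 ± 0.05 SE, edgeR adjusted p = 0.0315). That call was lost without Dia2 replicate 2 or 3, or without control replicate 1 or 2, at log2 fold changes of -0.14, -0.11, -0.14 and -0.11, and with upper-quartile factors at -0.10. Lrguk, 56.5 kb after Exoc4, was near the detection floor at 0.159 ± 0.112 and 0.186 ± 0.0689 CPM in the Dia2 and control siRNA groups (adjusted p = 0.768 by edgeR). Slc35b4, a nucleotide sugar transporter gene 183 kb after Exoc4, was chosen after its values were seen. It fell to 43.2 ± 0.873 CPM with Dia2 siRNA, against 63.8 ± 1.66 CPM with control siRNA (edgeR adjusted p = 8.5e-07). No protein-coding gene overlaps Exoc4 in GENCODE M21.

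Among genes of at least 2 CPM without a predicted or clone name, those nearest to Exoc4 in pattern over the 6 libraries were Car3, Fbn1, Pik3ip1, Mfap5 and Vnn1. Likeness was the root mean square difference of log2 CPM centred on each gene's mean, which was 0.08, 0.08, 0.12, 0.17 and 0.19 for these genes. They encode a carbonic anhydrase, fibrillin-1, a regulator of phosphoinositide kinase, a microfibril protein and a pantetheinase. Car3 stood at 7.33, 8.06 and 7.50 CPM with Dia2 siRNA, against 1.01, 1.17 and 1.25 CPM with control siRNA. The measure is governed by the difference between the groups, on which Exoc4 was chosen, and 20.1% of the windows of Fbn1 occur in another gene's transcripts.

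Relatives of Exoc3 outside the complex moved in both directions. Tnfaip2 (M-Sec), an Exoc3-related protein known for forming membrane nanotubes, fell to 57.0 ± 2.48 CPM with Dia2 siRNA, against 103 ± 6.93 CPM with control siRNA (SD, n = 3 each; log2 fold change -0.86 ± 0.06 SE, edgeR adjusted p = 1.32e-07). Exoc3l, at 1.10 ± 0.0719 CPM with Dia2 siRNA and 0.728 ± 0.0484 CPM with control siRNA, was past the threshold (0.60 ± 0.19, edgeR adjusted p = 0.0176). That call was lost without Dia2 replicate 1 or 2, or without control replicate 1 or 2, at log2 fold changes of 0.55, 0.59, 0.56 and 0.57. Exoc3l4 was at 5.83 ± 0.304 CPM with Dia2 siRNA and 5.83 ± 0.236 CPM with control siRNA (edgeR adjusted p = 0.988).

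Ral GTPases recruit the exocyst through Exoc2 and Exoc8, and their list was split. Among the 12 genes, 6 were higher and 5 lower at an adjusted p of 0.05, beside 29.3% higher and 29.9% lower over all genes, and the median log2 fold change was -0.03. Ralb, 1 of the 2 Ral GTPases, fell to 52.0, 53.2 and 51.1 CPM with Dia2 siRNA, against 87.6, 91.7 and 86.8 CPM with control siRNA (log2 fold change -0.77 ± 0.05 SE, edgeR adjusted p = 5.8e-08). Rala, the other one, stood at 61.6 CPM with Dia2 siRNA and 55.3 CPM with control siRNA on average (0.16, edgeR adjusted p = 0.0441), with overlapping libraries. That call was lost without any one library other than control replicate 3, at edgeR adjusted p from 0.0577 to 0.208. Ralgapa2, a catalytic subunit of the Ral GTPase-activating complex, fell to 10.5 ± 0.968 CPM with Dia2 siRNA, against 18.9 ± 0.741 CPM with control siRNA (-0.84 ± 0.07, edgeR adjusted p = 1.2e-06). The exchange factor genes Ralgps1 and Ralgps2, under 3 CPM, rose at 0.53 and 0.50 (edgeR adjusted p = 0.0179 and 0.0333). The Ralgps1 call was lost without Dia2 replicate 1 or 3 or control replicate 2, at 0.49, 0.47 and 0.42, and the Ralgps2 call without Dia2 replicate 1 or 3 or control replicate 1 or 3, at 0.46, 0.46, 0.45 and 0.40 (log2 fold changes). Without Dia2 replicate 1 or 3 the list had 2 higher genes, and 3 without control replicate 2.

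Rab and Arf GTPases bring vesicles to the exocyst, and phosphatidylinositol phosphate kinases make the membrane lipid it binds; single genes of these kinds moved in both directions. Pip5k1b, a phosphatidylinositol phosphate kinase, fell to 21.1, 22.8 and 23.0 CPM with Dia2 siRNA, against 61.7, 60.8 and 60.3 CPM with control siRNA (-1.45 ± 0.06 SE, edgeR adjusted p = 1.6e-09). Rab8b, a GTPase of secretory vesicles, rose to 33.5 ± 4.21 CPM with Dia2 siRNA, against 19.7 ± 1.80 CPM with control siRNA (0.76 ± 0.09, edgeR adjusted p = 1.81e-05). Its more abundant paralog Rab8a fell to 67.2 CPM with Dia2 siRNA, against 78.8 CPM with control siRNA on average (-0.23, edgeR adjusted p = 0.000674). Rab11fip2 and Rab11fip1, effectors of Rab11, fell at -0.67 and -0.59, while Rab11fip3, another effector, rose at 0.26 (edgeR adjusted p = 0.00164) and Rab11fip5 did not pass at -0.05. Rab11a and Rab11b, the GTPases of recycling vesicles, and Arf6 and Cdc42 did not pass, at 0.16, -0.09, 0.12 and -0.08.

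Of 10 scaffold and cytoskeletal partners 2 were higher and 1 lower while 7 did not pass, beside 59.2% of all genes called in either direction, and the median log2 fold change was -0.04. The Arp2/3 subunit genes Arpc1a and Arpc1b lay on opposite sides. Arpc1a fell to 55.4 ± 1.57 CPM with Dia2 siRNA, against 98.7 ± 5.55 CPM with control siRNA (edgeR adjusted p = 8.07e-08), and Arpc1b rose to 223 ± 5.30 CPM with Dia2 siRNA, against 152 ± 6.75 CPM with control siRNA (edgeR adjusted p = 9.67e-07). The polarity gene Pard3 rose at 0.22. Arpc1b shares 42.2% of the 3056 windows of 50 bases of its longest transcript with other annotated genes, so its count may be less certain. The counted row has 1551 bases, and the share inside these was not measured. Iqgap1, Pxn, Prkci and Tbk1 did not pass, at -0.06, -0.07, 0.01 and -0.11. Without control replicate 3 the count of lower genes was 3, and without control replicate 1 it was 2.

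Genes of the membrane fusion step that follows tethering were mostly lower. Of 15 SNARE genes and their regulators tested, 11 were lower and 1 higher while 3 did not pass, beside 29.9% lower and 29.3% higher over all genes. The median log2 fold change was -0.29, beside 0.01 over all genes. The syntaxin gene Stx3 fell to 12.3, 12.6 and 12.4 CPM with Dia2 siRNA, against 25.7, 24.1 and 25.2 CPM with control siRNA (-1.01 ± 0.06 SE, edgeR adjusted p = 4.25e-08). Stx1a fell to 5.46 ± 0.272 CPM with Dia2 siRNA, against 11.0 ± 0.573 CPM with control siRNA (edgeR adjusted p = 4.62e-07). Stxbp5 (tomosyn), an inhibitor of SNARE assembly, and Vamp8 fell at -0.72 and -0.60. The gene that rose was Vamp3 (cellubrevin), at 112 CPM with Dia2 siRNA and 81.5 CPM with control siRNA on average (0.45, edgeR adjusted p = 1.01e-05), and it was picked for being the exception. Stx4a, a syntaxin of the plasma membrane, did not pass at -0.09. Without control replicate 3 the count of higher genes was 2.

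Other tethering complexes give a frame for the exocyst. COG, GARP and EARP, which act at the Golgi apparatus and endosomes, and Dsl1, which acts at the endoplasmic reticulum, are relatives of the exocyst. Of their 16 genes 9 were lower and 2 higher while 5 did not pass, beside 29.9% lower, 29.3% higher and 59.2% called in all over all genes. Their log2 fold changes ran from -0.54 to 0.21. Cog1, Vps51, Zw10 and Cog8 fell most, at -0.54, -0.47, -0.46 and -0.35. Without Dia2 replicate 3 or control replicate 1, or without a composition factor, the count of higher genes in this list was 1. Of 22 genes of HOPS, CORVET and TRAPP, 6 were lower and 5 higher while 11 did not pass, beside the same 59.2% called over all genes. Trappc2, a small TRAPP subunit, rose to 12.4, 10.7 and 10.6 CPM with Dia2 siRNA, against 3.22, 3.09 and 3.48 CPM with control siRNA (1.78 ± 0.09 SE, 3.44-fold, edgeR adjusted p = 2.33e-08). The CORVET gene Vps8 rose 1.73-fold, while Trappc5 and Trappc2l fell 1.58-fold and 1.52-fold. Trappc2, Cog1, Cog8 and Vps51 share 22.6%, 17.9%, 27.5% and 27.2% of the windows of 50 bases of their longest transcripts with other genes. Their counts may be less certain, but the share inside the counted bases was not measured.

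**Figure D4:**
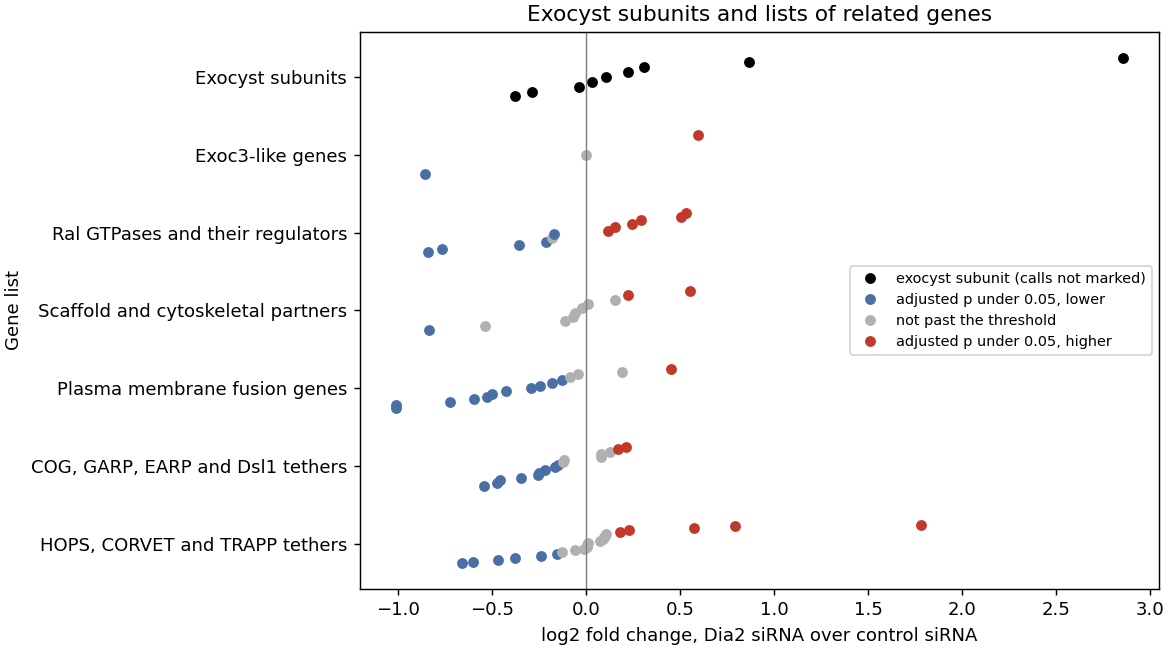
Log2 fold change, Dia2 siRNA over control siRNA, of the 9 exocyst subunit genes (black, calls not marked) and of the tested genes of 6 related lists, with genes past an adjusted p of 0.05 in red (higher) or blue (lower) and the others in grey. Exoc4 lies at 2.85, Trappc2 at 1.78 and Stx3 at -1.01.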

How the data were processed

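Per the file headers, the deposited table gives for each library a count and an RPKM value per gene, with coordinates and a length that is called coding but includes untranslated bases. TopHat2 2.0.6, HTSeq and bcl2fastq are named as tools, per the submitters' processing notes, beside human builds, whereas the table holds mouse genes. The rows of all 9 subunits overlapped the gene of the same symbol in GENCODE M21, so coordinates were read as GRCm38. The sources used here give no strand setting or annotation. RPKM values were used as the authors deposited them, to order subunits within a library and for their means, sums, shares and ratios. They were not TMM-scaled here. Counts as deposited were filtered with filterByExpr at a minimum count of 10, not required in every library, and a minimum total of 15. They were scaled by TMM and tested across all 14151 genes with edgeR 4.0.16's quasi-likelihood test (R 4.3.3), Benjamini-Hochberg adjusted at 0.05. The script was tested on simulated data. The SE is the absolute log2 fold change divided by the square root of F. Exoc3l2 and Vamp7 matched no row and are not analysed here, and Stxbp3 was read as Stxbp3a. One gene and the counts of its list are not reported here.

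Genes named are the subunits, Diaph3, Exoc3-like genes, neighbours and overlapping genes, the 5 nearest to Exoc4 in pattern, and up to 4 called genes of each list with a mean of at least 1 CPM and the largest change; other list members describe their list. Members and lists were chosen with earlier results of these data known. No 2 libraries of one group agreed within sampling noise (chi-square per degree of freedom 7.04 to 90.7). Rn45s was kept and only total counts were scaled, so its uneven share enters the higher figures. The 7.04 was for control replicates 1 and 2, at 6.05% and 6.00% Rn45s. The 90.7 was for control replicates 1 and 3, the latter at 11.7%. A floor of 6 counts (3 fragments, if each was counted as 2) is 0.0545 to 0.0851 CPM and covers counting error only. Alternatives were other scalings, filters and tools (DESeq2 1.42.0, limma-voom with limma 3.58.1), the replicate number as a block, counts divided by 2, removal of Rn45s and Lars2, and libraries left out.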

Additional observations from a re-analysis of the deposited data

How the results depend on the processing

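The log2 fold changes of the subunits moved by less than the spread between replicates in 152 of 153 repeats. The exception was Exoc3, at 0.26 with upper-quartile factors. Leaving out each library in turn gave 2.78 to 2.92 for Exoc4, 0.80 to 0.95 for Exoc6, -0.46 to -0.28 for Exoc5 and -0.33 to -0.27 for Exoc1. Counts of calls over all genes stayed within 1.5 times. The order of the subunits was the same with TMM-scaled counts per kilobase, but these use the same deposited lengths. Such scaling cannot reorder subunits within a library, and other lengths were not tried. Deviations of same-numbered libraries correlated at 0.0036, -0.0014 and -0.084, and those of other pairs at -0.049 to 0.054. Scarce and abundant genes weigh alike in these correlations, so they cannot exclude that replicate numbers pair the libraries. With the replicate block 3877 genes were higher and 3895 lower, 3 Ral genes were higher and 1 COG, GARP, EARP or Dsl1 gene was higher. That count was also 1 without a composition factor. Without Dia2 replicate 1 and control replicate 3, the libraries richest in Rn45s, 2 fusion genes and 0 Exoc3-like genes were higher and 3 scaffold partners lower, and with a mean of at least 1 CPM no (0) Exoc3-like gene was higher, since Exoc3l was then not tested. With each library left out in turn, the higher counts ranged from 2 to 5 for the Ral list and from 1 to 2 for the fusion genes. They ranged from 1 to 2 for COG, GARP, EARP and Dsl1 and from 0 to 1 for the Exoc3-like genes. The lower counts ranged from 1 to 3 for the scaffold partners, from 6 to 11 for COG, GARP, EARP and Dsl1 and from 9 to 12 for the fusion genes. Exoc3l4, near 0, turned sign at -0.017 without a composition factor, -0.00058 with no filter, -0.0017 with the block, -0.0078 without Rn45s and Lars2, and at -0.031 to 0.041 with each library left out, and Lrguk, near the floor, at -0.76 to 0.26 with each library left out, turning sign without Dia2 replicate 2. Of the other named calls, Rala, Ralgps2 and Chchd3 were lost with the block (adjusted p = 0.086, 0.0544 and 0.0694), and Rala also without a composition factor or without Rn45s and Lars2 (0.0597 and 0.0612). Without the libraries richest in Rn45s, Ralgps1, Ralgps2 and Exoc3l were lost (0.0718, 0.164 and 0.0577). Other causes were not tested. Depth limits statements on Lrguk, Exoc3l and the scarce markers.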
